A study of Mus musculus with 6 samples.

Results

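The epidermal kallikreins are a group of secreted serine proteases encoded side by side on mouse chromosome 7, taken here as Klk5, Klk6, Klk7, Klk8, Klk10, Klk11, Klk13 and Klk14. Their expression was compared between thymic and thyroid epithelial cells. Members were found by matching the symbols, accessions, descriptions and older symbols of the array's probes. Of the 8 genes, 7 had at least 1 probe, and together they held 9 of the 41174 probes on the array. Klk13 was the gene without a matched probe. A probe named Egfbp2 was assigned to the glandular kallikrein Klk1b26 and was not counted for Klk13, whose RefSeq entry lists a similar older name. All 9 probes matched their gene by both name and accession. This mattered because Klk5, Klk6, Klk8 and Klk11 were also used as older names of glandular kallikreins.

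Cells came from C57BL/6 mice, with no further genotype or treatment given, and were sorted as live cells without the blood cell marker CD45 (Epcam+ CD45- Fluorogold-). The thymic cells, labelled as coming from the medulla, also carried UEA1, a lectin that marks medullary epithelium. Each thymic array held RNA from pooled thymi, 6 each for replicates 1 and 2 and 2 for replicate 3. Each thyroid array held RNA from 20 pooled thyroids. The 3 replicates per group are described as independent, and each is a pool, so differences between single animals are not visible. The age and sex of the animals are not given in the sources used here.

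The arrays were read in 1 colour, and a level is given here as log2 of the processed signal relative to that array's 75th percentile, which lay between 475 and 805 signal units. A spot counted as well above background by the scanner software's flag, and the dimmest signals with that flag lay between 7.49 and 11.1 units. The thymic arrays carried the markers of their label: 7 of 8 measured medullary epithelial genes were higher in thymic cells, with Aire at least 3535-fold higher. Of 10 thyroid follicular genes, 9 were higher in thyroid cells, with Tg, the precursor of thyroid hormone, differing by -10.78. The summed linear level of the follicular genes was 559 to 730 times the 75th percentile on thyroid arrays. On thymic arrays it was 0.66 to 0.71. The medullary genes summed to at least 90.9 on each thymic array and at most 10.65 on each thyroid array. Markers of other cells also differed. All 9 endothelial genes were higher in thyroid cells. Their summed level was 561 to 838 on thyroid arrays against 2.13 to 2.66 on thymic arrays. On thyroid arrays the endothelial sum was thus as large as the follicular sum. Sums over different genes do not give the shares of cells. Of 10 myeloid and dendritic genes, 9 were higher in thymic cells. Their summed levels were 96.5 to 104 on thymic arrays, mostly from Lyz2 (mean log2 level 6.60 there), and 3.01 to 4.43 on thyroid arrays. The same direction was seen for 10 of 12 thymocyte genes tested (summed levels of 3.58 to 7.04 against 1.87 to 1.98), 5 of 5 B cell genes (4.01 to 4.89 against 1.30 to 2.43), 5 of 5 airway and oesophagus genes (14.2 to 17.7 against 1.04 to 1.30) and 1 of 5 fibroblast genes (19.7 to 34.8 against 7.13 to 22.1). For salivary gland genes it was 5 of 6, with overlapping summed levels of 5.08 to 5.84 against 4.37 to 6.23. The thyroid sum was mostly Aqp5, the salivary gene that was higher in thyroid cells. Of 3 parathyroid genes, 2 were higher in thyroid cells (11.9 to 45.1 against 83.6 to 381). The part of these other cell types in the kallikrein results was not tested. In such bulk samples, fewer cells of a type and less RNA per cell cannot be told apart. The 3 thymic arrays and thyroid replicate 1 shared a slide, and thyroid replicates 2 and 3 were on another.

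As background, kallikrein-related peptidases are made as inactive precursors and become active when a short leading stretch is cut off. In the outer skin, the trypsin-like Klk5 and Klk14 and the chymotrypsin-like Klk7 cut the proteins of corneodesmosomes, the junctions that hold dead surface cells together, so that these cells are shed. Klk5 can activate itself and other members, and inhibitors such as Spink5 hold the enzymes in check. Medullary thymic epithelial cells are known for expressing many genes otherwise limited to other tissues, skin genes among them, and some mature toward a cornified state. Thyroid follicular cells make thyroid hormone.

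Kallikreins are similar in sequence, so the letters that were measured matter. The array's 60-base probes of 5 members are given here with the longest stretch shared with a probe of any other kallikrein in capitals, and probes of 2 glandular kallikreins follow. The Klk7 probe shown is the one that represented the gene in the fit, and the Klk1 probe shown is the one that did not.
Klk5: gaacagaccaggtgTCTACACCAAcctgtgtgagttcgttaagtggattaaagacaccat
Klk7: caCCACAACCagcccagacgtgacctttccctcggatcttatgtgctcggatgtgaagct
Klk8: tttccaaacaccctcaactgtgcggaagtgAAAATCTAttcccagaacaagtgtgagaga
Klk10: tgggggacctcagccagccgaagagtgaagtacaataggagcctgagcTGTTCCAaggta
Klk14: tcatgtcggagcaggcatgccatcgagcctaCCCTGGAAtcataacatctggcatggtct
Klk1: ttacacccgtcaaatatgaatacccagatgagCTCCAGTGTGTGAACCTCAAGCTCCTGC
Klk1b4: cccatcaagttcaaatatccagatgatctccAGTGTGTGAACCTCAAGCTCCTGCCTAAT
The shared stretch was 10 bases for Klk5, 8 for Klk7, Klk8 and Klk14 and 7 for Klk10. Over all 9 member probes it was 6 to 10 bases. This Klk1 probe shared 28 of its 60 bases with the Klk1b4 probe, while the Klk1 probe used in the fit shared at most 8 with any other. In the Klk1b4 probe the capitals mark 29 bases shared with a further probe, outside the kallikrein genes counted here. They are not the same stretch as its match with Klk1. Shared stretches of glandular probes ran from 8 to 29 bases. Probes were set against probes and not against transcripts, so these lengths do not show which transcripts a probe can bind, and signal from close relatives was not tested for any of these genes.

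Of the 7 epidermal kallikreins with a probe, 5 were higher in thymic cells (Klk5, Klk6, Klk7, Klk10 and Klk14), 1 was higher in thyroid cells (Klk11) and 1, Klk8, did not pass the test. The test was limma's, with Benjamini-Hochberg adjustment over 21381 genes and a threshold of 0.05 on the adjusted p. The 2 cell types differed widely, so these counts stand against a high background: 69.8% of all genes tested passed, 39.2% (8390 genes) higher in thymic cells and 30.6% (6534 genes) higher in thyroid cells. With each array centred on its median, 6124 genes passed with higher levels in thymic cells and 10965 with higher levels in thyroid cells. The median difference over the 7 members, thymic minus thyroid, was 2.47 on the log2 scale, against 0.10 over all genes tested. With dim genes at their bound it was 2.27, a measure not taken over all genes. Klk14 is the middle member and sets both of these medians, while single members ran from -1.59 to 8.27. Klk5, Klk6 and Klk7 were higher in thymic cells by 8-fold or more, as were 13.7% of all genes tested. The 2 groups of arrays did not overlap for 6 of the 7 members, 5 with the thymic and 1 with the thyroid arrays higher. Over all genes tested, 76.5% did not overlap, 42.1% with thymic and 34.4% with thyroid arrays higher. All 7 members with a probe passed the filter on dim probes. Klk5, Klk6 and Klk14 passed it through the thymic arrays alone and Klk11 through the thyroid arrays alone.

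**Figure D1:**
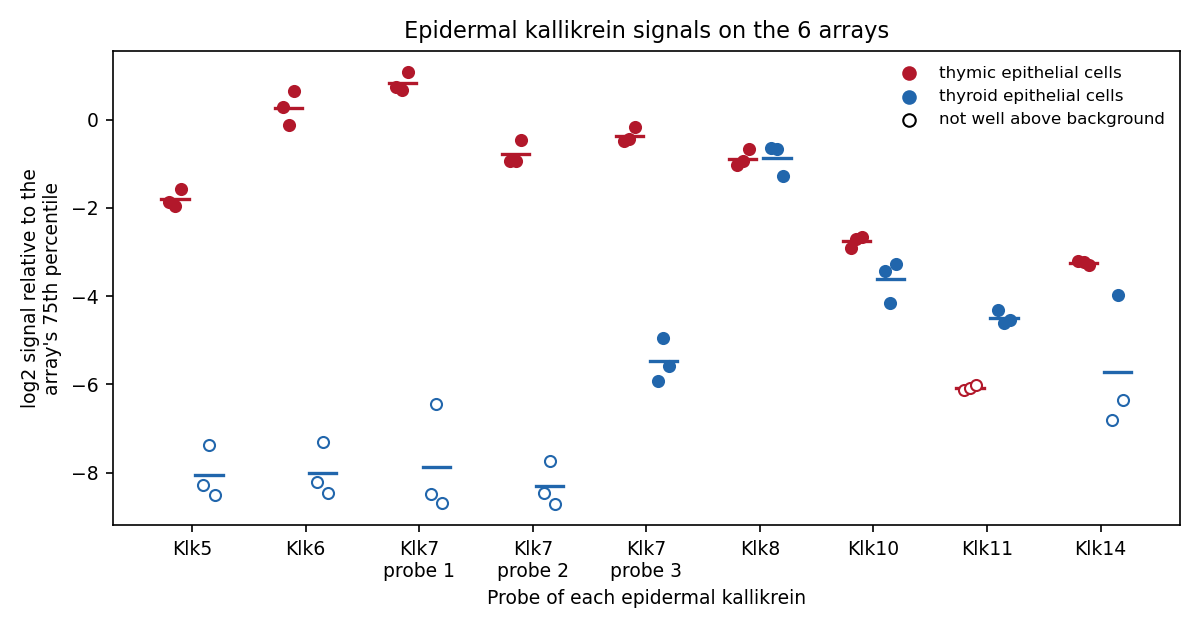
Level of each epidermal kallikrein probe on each array (vertical axis, log2 of the signal relative to the array's 75th percentile; horizontal axis, probe), with thymic arrays in red, thyroid arrays in blue and group means as bars. Open points were not well above background. The groups lie far apart for Klk5, Klk6 and the 3 probes of Klk7, overlap for Klk8, and run the other way for Klk11.

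Klk5, the trypsin-like enzyme that can start the activation of other members, was measured by a probe at chr7:43718841-43718900 (build mm8, as all positions of probes here; exon and UTR placement was not analysed). Its signal was 212, 181 and 227 units in thymic replicates 1 to 3, all well above background. In thyroid replicates 1 to 3 it was 2.57, 2.87 and 1.95 units, none of them above background even by the scanner's weaker flag. Every thymic array was far above every thyroid array. Mean levels were -1.79 ± 0.20 (SD, n = 3) in thymic and -8.06 ± 0.61 (SD, n = 3) in thyroid cells, a difference of 6.26 with a standard error of 0.30 (adjusted p = 4.40e-06). Since the thyroid value is only a bound, thymic Klk5 was at least 19.3-fold higher. Bounds of this kind set the mean of the brighter group against a raised mean of the dimmer group. On each of its arrays, that mean takes the lowest signal flagged as well above background or the probe's own signal, whichever was higher. Such bounds do not include the spread between arrays.

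Klk7, the chymotrypsin-like enzyme that cuts corneodesmosin and desmocollin in skin, had 3 probes, and all 3 were well above background on every thymic array. The probe numbered 1 in the plot of levels, at chr7:43683924-43683983, read 1296, 1114 and 1418 units in thymic cells and 2.25, 5.45 and 1.71 units in thyroid cells. Probe 2, at chr7:43684060-43684119, read 404, 362 and 488 units in thymic and 2.29, 2.23 and 1.70 units in thyroid cells. Neither probe was well above background on any thyroid array. Probe 3, whose 60 bases are placed over 247 bases at chr7:43681065-43681311, read 553, 513 and 599 units in thymic cells. It read 13.4, 15.4 and 14.8 units in thyroid cells, where it was well above background on all 3 arrays.
The probes thus gave the same direction and different sizes. The difference was 8.71 ± 0.57 (SE) for probe 1, at least 119-fold, and 7.52 ± 0.27 (SE) for probe 2, at least 39.0-fold. For probe 3, which represented the gene, it was 5.12 ± 0.25 (SE), or 34.7-fold (adjusted p = 4.83e-06). Klk7 signal well above background in thyroid cells was therefore seen with 1 of 3 probes. By the scanner's weaker flag, probe 1 was also above background on 2 of 3 thyroid arrays.

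Klk14, a trypsin-like enzyme also active in skin shedding, had a probe at chr7:43562415-43562474. It read 83.5, 74.8 and 68.5 units in thymic cells, all well above background. In thyroid cells it read 7.16, 30.3 and 8.74 units, and only the signal of replicate 2 was well above background. By the scanner's weaker flag, Klk14 was above background on all 3 thyroid arrays. The groups did not overlap, but thyroid replicate 2 came close to the thymic arrays. On the log2 scale its level was -3.97, against -6.81 and -6.35 in thyroid replicates 1 and 3 and -3.21 to -3.30 in thymic cells. The difference was 2.47 ± 0.69 (SE), with a 95% interval from 0.80 to 4.13 (adjusted p = 0.0168). With thyroid replicates 1 and 3 at their bound, the means differed by 4.83-fold, but the interval reaches down to 1.75-fold. Without thyroid replicate 2 the difference was 3.34 (adjusted p = 1.51e-05). The call was lost without thyroid replicate 1 (1.92, adjusted p = 0.0501), without thyroid replicate 3 (2.15, adjusted p = 0.0515), without replicate 3 of both groups (2.18, adjusted p = 0.108) and with quantile normalization (1.51, adjusted p = 0.0594). On the slide that held both groups it was 3.57, against a thyroid signal not well above background.

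Klk6, known as neurosin, is a trypsin-like enzyme abundant in the nervous system and also made in skin. Its probe at chr7:43699635-43699694 read 938, 645 and 1053 units in thymic cells and 2.71, 2.98 and 2.01 units in thyroid cells. None of the thyroid signals was above background by either flag. Mean levels were 0.27 ± 0.38 (SD, n = 3) and -8.00 ± 0.60 (SD, n = 3), a difference of 8.27 ± 0.33 (SE; adjusted p = 2.20e-06). Thymic Klk6 was at least 81.0-fold higher. The thymic arrays varied more for Klk6 than for any other member with a probe, with levels of 0.28, -0.11 and 0.64.

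Of the 9 member probes, 4 (Klk5, Klk6 and probes 1 and 2 of Klk7) were well above background on all 3 thymic arrays and on no thyroid array. Over all probes on the array this share was 7.75%. Of the 9, 8 were well above background on all thymic arrays (77% of all probes), 4 on all thyroid arrays (64.8% of all probes) and 3 on all 6 arrays (63.2% of all probes). The opposite pattern, well above background on all thyroid arrays and no thymic array, held for 0.767% of all probes. Klk11 was the member that had it, though by the scanner's weaker flag it was above background on all 3 thymic arrays.

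Klk8, or neuropsin, a trypsin-like enzyme of skin and of the hippocampus, was clearly detected in both cell types. Its probe at chr7:43670127-43670186 read 377, 363 and 424 units in thymic cells and 520, 299 and 294 units in thyroid cells, all well above background. The levels overlapped, from -1.03 to -0.67 in thymic and from -1.28 to -0.63 in thyroid cells. The difference was -0.02 ± 0.21 (SE), with a 95% interval from -0.52 to 0.47 (adjusted p = 0.931). As a ratio of thymic to thyroid cells, the interval runs from 0.70 to 1.39, so it allows a difference in either direction. Centring each array on its median, which moved the median of all genes by -0.52, gave -0.55 (adjusted p = 0.0473).

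Klk10 differed little between the cell types. Its probe, placed over 644 bases at chr7:43651749-43652392, read 102, 107 and 106 units in thymic cells and 74.4, 26.5 and 73.7 units in thyroid cells, well above background on all 6 arrays. Levels were -2.92, -2.70 and -2.66 in thymic and -3.44, -4.16 and -3.27 in thyroid cells, without overlap, and thyroid replicate 2 was lowest. The difference was 0.86 ± 0.24 (SE; 1.82-fold; adjusted p = 0.0165), with a 95% interval from 0.28 to 1.44. This call was lost with median centring (0.34, adjusted p = 0.246), quantile normalization (0.21, adjusted p = 0.427), the slide as a block (0.67, adjusted p = 0.150) and without thymic replicate 2 (0.83, adjusted p = 0.0520) or 3 (0.81, adjusted p = 0.0555). Within the slide that held both groups, where the single thyroid array gives no spread of its own, it was also 0.67. Without thyroid replicate 2 it was 0.59 (adjusted p = 0.0104).

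Klk11, another trypsin-like member, was the single one higher in thyroid cells. Its probe, placed over 386 bases at chr7:43644541-43644926, read 11.03, 10.3 and 10.4 units in thymic cells, close to background. In thyroid cells it read 40.8, 19.5 and 30.3 units, well above background on all 3 arrays. Levels were -6.13 to -6.01 in thymic and -4.61 to -4.30 in thyroid cells, without overlap. Thyroid Klk11 was 3.01-fold higher, both as fitted and with its thymic signals at their bound. The difference was -1.59 ± 0.12 (SE; adjusted p = 3.34e-05), with a 95% interval from -1.88 to -1.30. It was -0.44 with normexp background correction and -2.79 with quantile normalization, both past the threshold. Without thyroid replicate 1, the highest array, it was -1.50.

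The size of the large differences depended on how dim signals were treated. With normexp correction and an offset of 50, which compresses low signals, the differences were 2.02 for Klk5, 3.67 for Klk6, 2.82 for Klk7 and 0.77 for Klk14, all still past the threshold. Within the shared slide, where 3 thymic arrays faced 1 thyroid array, differences were 6.50 for Klk5, 8.49 for Klk6, 5.55 for Klk7, -0.25 for Klk8 and -1.77 for Klk11. On that 1 thyroid array the signals of Klk5 and Klk6 were not above background, so their values there give a direction and no size. The other slide held thyroid arrays only and gives no value. The plot of alternatives shows every setting.

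**Figure D2:**
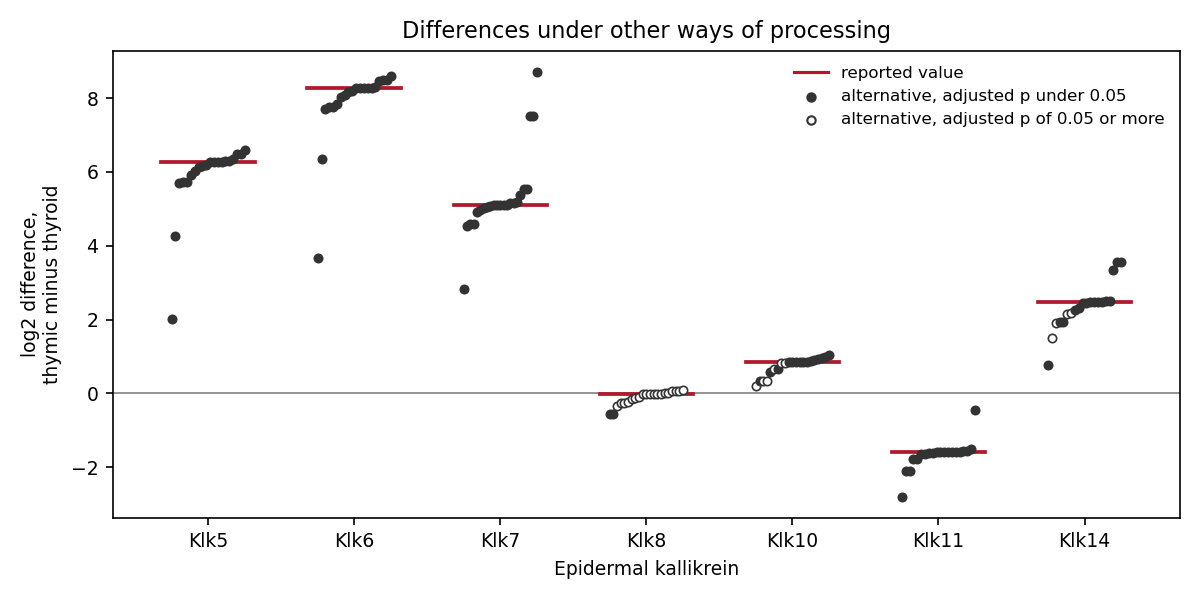
Difference between thymic and thyroid cells for each epidermal kallikrein (vertical axis, log2, thymic minus thyroid) as reported (red line) and under each alternative way of processing or with arrays left out (points; open where the adjusted p was 0.05 or more). Klk5, Klk6 and Klk7 stay above 0 and Klk11 below 0 throughout, while Klk10 and Klk14 hold open points and Klk8 lies on both sides of 0.

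Replicates of the thymic group spread over less than 1 log2 unit for every member with a probe. The SD over the 3 thymic arrays was 0.05 for Klk14 and 0.06 for Klk11, up to 0.38 for Klk6, against a median of 0.12 over all genes tested, which 5 of the 7 members exceeded. Among thyroid arrays it ran from 0.16 for Klk11 to 1.53 for Klk14, against a median of 0.22. Thyroid signals of Klk5 and Klk6 were below background, where levels have no meaningful order. The array from 2 thymi, replicate 3, was highest of the thymic arrays for Klk5, Klk6, Klk8, Klk10, Klk11 and all 3 probes of Klk7. For Klk14 it was the lowest. How often replicate 3 was highest over all genes was not counted, so no trait of the members can be read from this.

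To compare how members changed relative to one another, differences between 2 probes were taken within each array, where any scaling of the array cancels. Klk7 minus Klk8 was 0.55, 0.50 and 0.50 on thymic arrays and -5.28, -4.28 and -4.31 on thyroid arrays. Klk10 minus Klk8 shifted by 0.88 with overlapping groups. For these 2 pairs, measured well above background on all arrays, two-sided exact permutation tests gave p = 0.1, the smallest value that 3 against 3 arrays allow, and p = 0.2, and both were 0.2 after adjustment over the 2 pairs. The other pairs hold signals not well above background and were not tested. With such signals raised to the background floor, Klk6 minus Klk8 shifted by at least 6.36, Klk5 minus Klk8 by at least 4.30 and Klk14 minus Klk8 by at least 2.29. Klk11, dim on the thymic arrays, shifted by -1.57 relative to Klk8 and by -2.45 relative to Klk10. Relative to its neighbour Klk8, Klk7 by its probe 3 was thus higher on every thymic than on every thyroid array, whatever the scaling. Klk8 itself differed by -0.02 between the groups, so shifts relative to it largely repeat each member's own difference.

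The members lie in 1 run of genes. In the RefSeq table of GRCm38.p6, used for the order alone, 26 kallikrein genes follow each other from Klk14 to Klk1, with Klk12 between Klk13 and Klk11, and Klk9 between Klk10 and Klk8. Klk12, an enzyme of the same family, read 166, 98.1 and 162 units in thymic cells and 2.27, 2.39 and 1.68 units in thyroid cells. Its thymic level was at least 13.0-fold above the thyroid level (5.91 ± 0.33, SE; adjusted p = 7.98e-06). With normexp correction its difference was 1.64. Its neighbour Klk11 ran the other way. Klk4, the kallikrein of maturing tooth enamel, was 7.26-fold higher in thymic cells (2.86 ± 0.15, SE; adjusted p = 5.91e-06), with 854, 708 and 774 units against 113, 86.0 and 94.6. Klk15 read 19.9, 21.1 and 20.5 units in thymic cells and 3.83, 6.06 and 6.78 in thyroid cells (1.79 ± 0.35, SE; at least 1.93-fold; adjusted p = 0.00332). That call was lost with normexp correction (0.20, adjusted p = 0.350) and quantile normalization (0.31, adjusted p = 0.366). Klk9 was not well above background on any array and was not tested.
The glandular kallikreins, best known from salivary gland and kidney, fill the other end of the run. Of 14 such genes, 12 had a probe, and all 12 were higher in thymic cells, with a median difference of 5.92 on the log2 scale, the same with dim genes at their bound. The differences ran from at least 3.44 for Klk1b1 to at least 9.13 for Klk1b11, both too dim on all 3 thyroid arrays to pass the background flag, and from 4.52 to 8.25 for the other 10. Klk1, tissue kallikrein, read 3095, 3021 and 2704 units in thymic and 78.2, 92.6 and 71.4 units in thyroid cells with the probe that represented it, a 33.2-fold difference, and its other probe gave 186-fold. Thyroid replicate 2 was the highest of the 3 thyroid arrays for all 10 that were well above background on each of them, whereas the other Klk1 probe was highest in replicate 1. Over all genes tested and well above background on the 3 thyroid arrays, replicate 2 was the highest for 33.1%. The summed levels of salivary gland markers, given above, overlapped between the groups. On thyroid arrays the sum rests mainly on Aqp5, 2.25-fold higher in thyroid cells, while 5 of 6 markers were higher in thymic cells. The part of salivary gland in these values was not tested.

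**Figure D3:**
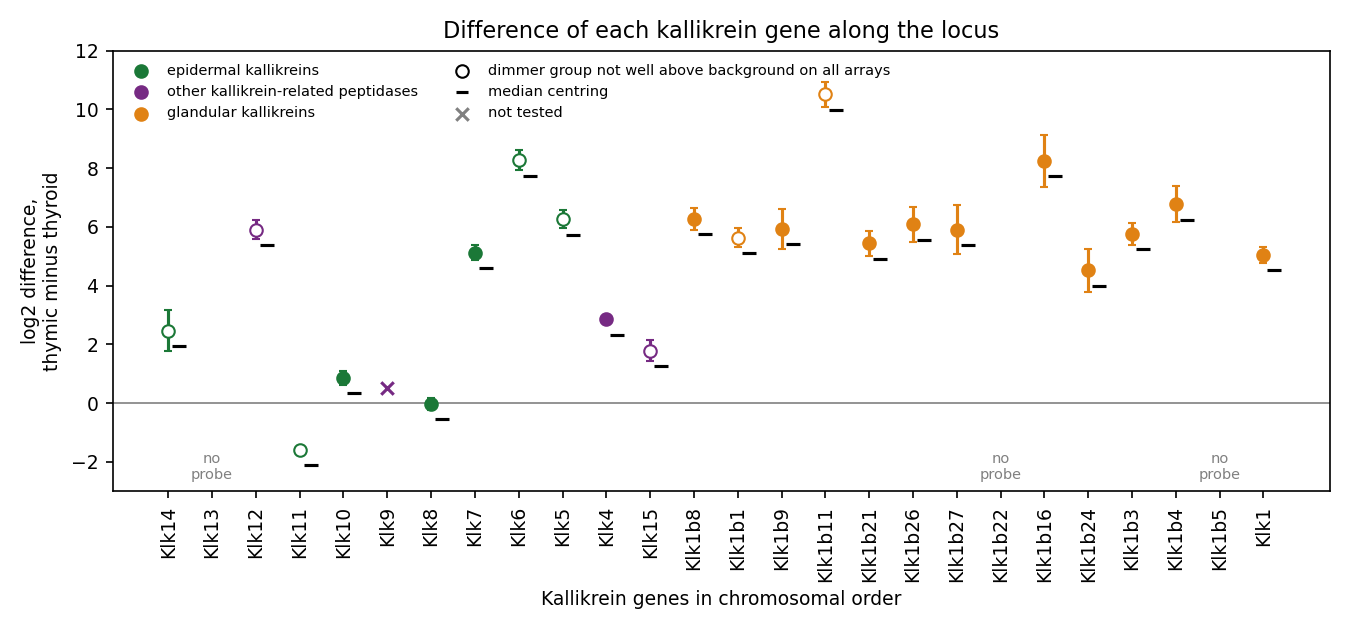
Difference of each kallikrein gene between thymic and thyroid cells (vertical axis, log2, thymic minus thyroid; error bars, SE) in chromosomal order from Klk14 to Klk1. Dashes give the value after median centring, and open points mark genes whose dimmer group was not well above background on all arrays. Klk11, Klk10 and Klk8 are near or below 0, between Klk12 on one side and Klk7, Klk6 and Klk5 on the other.

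Klk8 and Klk7 are neighbours with unlike results, and the 250 bases before their start sites are shown for that reason. The sequences are RefSeq's for GRCm38.p6, plus strand, with every CG pair in capitals. The Klk8 stretch is chr7:43797327-43797576 and the Klk7 stretch is chr7:43811044-43811293.
Klk8: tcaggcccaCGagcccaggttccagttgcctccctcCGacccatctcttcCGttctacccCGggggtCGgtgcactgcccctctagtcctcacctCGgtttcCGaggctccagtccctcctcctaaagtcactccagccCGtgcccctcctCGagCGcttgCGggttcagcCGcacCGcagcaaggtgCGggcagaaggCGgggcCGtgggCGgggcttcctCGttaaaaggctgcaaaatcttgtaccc
Klk7: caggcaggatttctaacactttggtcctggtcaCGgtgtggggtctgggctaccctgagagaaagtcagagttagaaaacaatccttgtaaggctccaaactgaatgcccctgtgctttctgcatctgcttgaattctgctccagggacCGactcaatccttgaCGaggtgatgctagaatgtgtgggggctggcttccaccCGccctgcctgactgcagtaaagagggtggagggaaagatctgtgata
The Klk8 stretch held 18 CG pairs and was 65.2% G or C, and 21.8% of 32536 such stretches in the mouse table held as many pairs or more. The Klk7 stretch held 4 pairs and was 52.4% G or C, and 62.6% of stretches held as many. Starts of the other members held 0 pairs (Klk14), 2 (Klk10 and Klk13), 3 (Klk5), 2 or 3 (the 2 starts of Klk11) and 3 or 7 (the 2 starts of Klk6). Klk8 therefore had the most CG pairs of the 8 members. The Klk8 and Klk7 pair was picked by its results, and a link between CG pairs and expression was not tested. The same stretches were searched on both strands for AP-1 (TGACTCA), grainyhead (AACNNGTT), KLF (CCNCACCC) and TATA box (TATAAA) letters. Of all stretches, 4.45% held the AP-1 letters, 3.62% the grainyhead letters, 14.96% the KLF letters and 12.3% the TATA letters. No member held an AP-1, grainyhead or TATA match. KLF letters were found 2 times before Klk10 and 1 time each before Klk14 and Klk5. These are matches of letters and describe no binding.

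Genes that act with the epidermal kallikreins were taken from 3 lists. Of 9 proteases listed as possible activators of kallikreins or of one another, 8 were tested. Of these, 6 had their higher levels in thymic and 2 in thyroid cells, with a median difference of 2.14 (1.21 with dim genes at their bound). Tmprss4, a membrane-bound serine protease, exceeded its thyroid level by at least 978-fold. The meprins Mep1a and Mep1b, metalloproteases on the same list, were higher by 31.7-fold and at least 17.5-fold. Plau, urokinase, was higher by 2.46-fold. St14, or matriptase, which can activate kallikrein precursors in skin, differed by 0.93 ± 0.18 (SE), but its call was lost with median centring (0.40, adjusted p = 0.0561). Tmprss11d was at least 2.18-fold higher, a call lost with normexp correction (0.31, adjusted p = 0.130). Prss8, or prostasin, the partner of matriptase, was 4.14-fold higher in thyroid cells, and Tmprss13 was 3.40-fold higher there. Tmprss11e was not tested. With normexp correction the log2 difference went from 10.83 to 7.13 for Tmprss4 and from 5.82 to 1.81 for Mep1b, and with median centring from 1.30 to 0.78 for Plau, all still past the threshold.

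All 8 inhibitors were higher in thymic cells, with a median difference of 5.04 (2.97 with dim genes at their bound). Spink5, whose product LEKTI blocks Klk5, Klk7 and Klk14 in skin, was at least 530-fold higher. Its levels were 3.42, 3.59 and 3.56 in thymic and -6.07, -6.23 and -5.10 in thyroid cells. Spink12 was at least 169-fold higher and Spink6, an inhibitor of kallikreins in skin, at least 7.09-fold. Slpi, an inhibitor of secreted leukocyte proteases, was 57.6-fold higher, and Serpina5 at least 8.62-fold. The membrane-bound inhibitors of matriptase differed less, by 2.51-fold for Spint1 and by 0.62 on the log2 scale for Spint2, whose call was lost with median centring (0.09, adjusted p = 0.473). Serpina12, which inhibits Klk7, was at least 1.29-fold higher, and its call was lost with normexp correction (0.12, adjusted p = 0.631) and with dim values raised to the background floor (0.37, adjusted p = 0.291). With normexp correction the log2 differences were 5.01 for Spink12, 1.05 for Spink6 and 1.20 for Serpina5, and with median centring 0.80 for Spint1, all past the threshold.

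Of 10 substrates, 9 had a probe, and 7 of those were higher in thymic cells, with a median difference of 4.19 (2.95 with dim genes at their bound). They include the junction proteins cut in skin shedding: Cdsn, corneodesmosin, at least 9.56-fold higher, and Dsg1a, Dsg1b and Dsg1c, forms of desmoglein 1, at least 173-fold, 51.1-fold and 4.30-fold. These 3 forms are close paralogs, and their values may share signal. Dsc1, desmocollin 1, was at least 2.80-fold higher, a call lost with normexp correction (0.38, adjusted p = 0.113). Camp, the precursor of the antimicrobial peptide cathelicidin that kallikreins process, was higher by at least 6.72 on the log2 scale. F2rl1, the protease-activated receptor that Klk5 and Klk14 can trigger, was 7.73-fold higher. Il1b (-0.31, adjusted p = 0.318) and L1cam (0.08, adjusted p = 0.619) did not pass, and with median centring they were -0.83 (adjusted p = 0.0178) and -0.44 (adjusted p = 0.0230). With quantile normalization L1cam was -0.48 (adjusted p = 0.0218). With normexp correction the log2 differences were 1.20 for Cdsn, 4.98 for Dsg1a, 3.29 for Dsg1b, 0.63 for Dsg1c, 4.25 for Camp and 1.33 for F2rl1, all past the threshold.

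**Figure D4:**
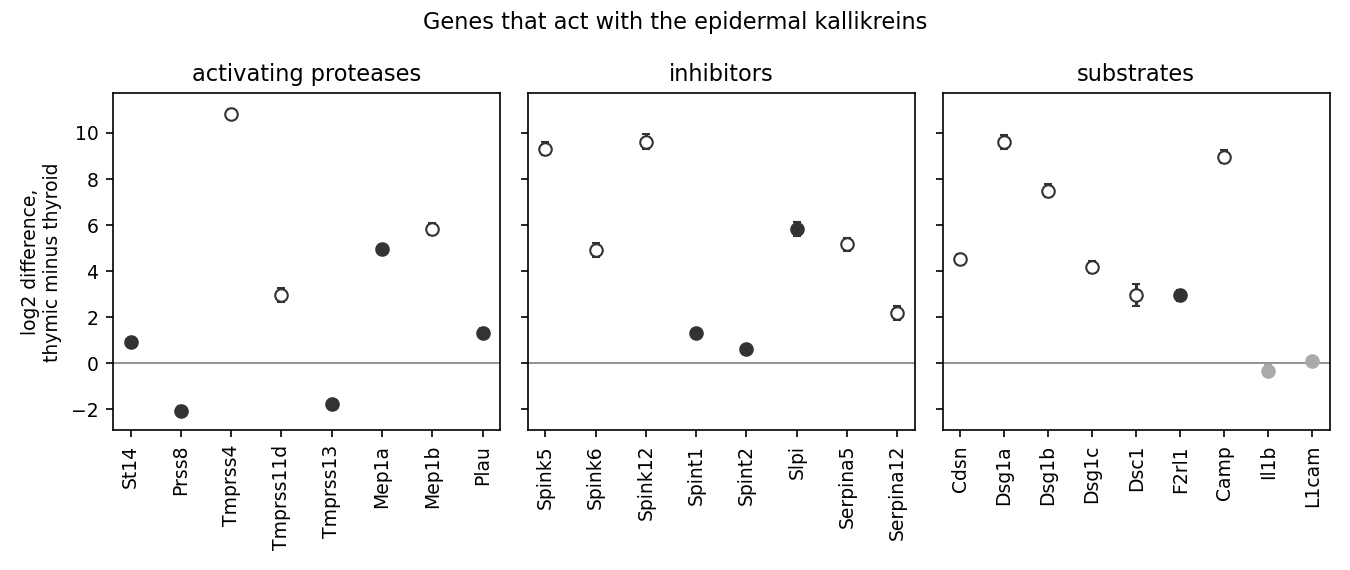
Differences between thymic and thyroid cells (vertical axis, log2, thymic minus thyroid; error bars, SE) for activating proteases, inhibitors and substrates of the epidermal kallikreins. Grey points did not pass the threshold, and open points mark genes whose dimmer group was not well above background on all arrays. All 8 inhibitors lie above 0, while Prss8 and Tmprss13 among the activating proteases lie below.

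The same arrays were read for keratinocyte genes. Of 23 measured genes of terminal keratinocyte differentiation, 21 were higher in thymic cells, 1 was higher in thyroid cells and 1 did not pass, with a median difference of 4.47 (4.00 with dim genes at their bound). Their summed linear level was 60.6 to 73.8 times the 75th percentile on thymic arrays against 3.07 to 3.26 on thyroid arrays. Calm4 was at least 440-fold higher and Rptn, the cornified envelope protein repetin, at least 272-fold. These 2 had the largest fitted differences, which rest on thyroid signals not well above background and give no rank. Alox12b, a lipoxygenase of the skin barrier, was 1.69-fold higher in thyroid cells. Of 9 basal keratinocyte genes, 7 rose in thymic relative to thyroid cells and 1, Itga6, fell. Krt14 and Krt5, the keratin pair of basal layers, were higher by 125-fold and 97.1-fold. Transcription factors of keratinocytes were split, 7 higher in thymic and 2 higher in thyroid cells of 9 tested. Pou2f3 was at least 5.11-fold and Ehf 11.1-fold higher in thymic cells, whereas Prdm1 was 18.1-fold and Klf4 3.06-fold higher in thyroid cells. Their part in the kallikrein differences was not tested.

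Genes with the profile most like the mean of 6 members over the 6 arrays were ranked among 21359 genes. The measure was the root mean square difference from the mean centred profile of Klk5, Klk6, Klk7, Klk8, Klk10 and Klk14. These were the members well above background on all 3 thymic arrays, a rule that left out Klk11, the member higher in thyroid cells. Genes whose difference is close to the mean of 3.83 are favoured, while the members' own differences ran from -0.02 (Klk8) to 8.27 (Klk6). Leaving out predicted and unnamed genes, the 5 nearest were Slc6a18 (0.078), Slc13a3 (0.084), Oca2 (0.091), Rax (0.096) and Iqch (0.10). Their thymic mean levels were -4.43 to -4.16, well above background on all 3 arrays. In thyroid cells none of the 5 passed the background flag on any array, and the mean profile includes dim thyroid values of Klk5, Klk6 and, on 2 of 3 arrays, Klk14. On the thyroid arrays, the values of these 5 genes are therefore all bounds, and the mean profile rests on bounds in part. Likeness there does not show shared expression.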

How the data were processed

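The scanner files were read as deposited. Per the file headers, Agilent Feature Extraction 10.5.1.1 gave each spot an intensity, the processed signal, on build mm8. The labels give Cy3 as the dye. The authors also deposited a value table, a linear ratio equal to each processed signal divided by the array median. Each array held 43379 non-control spots. Outlier spots (67 to 151 per array) were left out and the spots of a probe were averaged. log2 signals minus each array's 75th percentile were fitted with limma 3.58.1 in R 4.3.3 (lmFit, eBayes, two-sided, no covariate), after tests on simulated data. Testing required signal well above background (13 background SDs) on all 3 arrays of a group; a gene took its tested probe with the highest mean. The number of arrays limits the precision. Named genes were all members, Klk1, Klk4, Klk9, Klk12 and Klk15, the activators, inhibitors and substrates, up to 2 genes per direction of other lists, and 5 nearest profiles. Members and lists were chosen with earlier results of these data known. Alternatives changed background, scaling, filter, probe choice, slide, replicate block, variance model and arrays.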

Additional observations from a re-analysis of the deposited data

How the results depend on the processing

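Requiring probes well above background on all 6 arrays left 2 members higher in thymic cells and 0 in thyroid cells, since Klk5, Klk6, Klk11 and Klk14 then drop out, and 5023 genes higher in thymic cells in place of 8390. Median centring and the deposited table gave 10965 and 10966 genes higher in thyroid cells in place of 6534, with 6124 and 6123 higher in thymic cells, and 2 members (Klk8 and Klk11) in place of 1. Quantile normalization left 3 members higher in thymic cells in place of 5. These scalings moved the median of all genes by -0.52 (median centring and deposited table) and -0.21 (quantile). Leaving out 1 array at a time gave 4 to 5 members higher in thymic cells and 1 in thyroid cells. The deposited table gave 0.34 (adjusted p = 0.250) for Klk10, -0.55 (0.0466) for Klk8 and -0.44 for L1cam. The difference of Klk8, close to 0, changed sign with normexp correction (0.0654) and with scaling by probes above background on all arrays (0.0127), and it ran from -0.230 to 0.0914 when 1 array was left out. That of L1cam changed sign with normexp correction (-0.0364), quantile normalization (-0.48) and median centring (-0.44). Replicate numbers did not pair the samples (correlations of same-numbered arrays 0.01, -0.07 and -0.05); with the replicate block, 8046 genes were higher in thymic cells and no member's call changed. Of 756 counts of genes per list under the alternatives, 47 moved by more than 1.5-fold. The scaling by probes above background, the raised floor and the single fits of Klk7 probes were chosen after seeing the data. Dim signals limit Klk5, Klk6 and Klk14 in thyroid cells and Klk11 in thymic cells to bounds.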
